A study of Homo sapiens with 8 samples.

Results

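YTHDC1 and YTHDF1 encode proteins that bind N6-methyladenosine (m6A), and each gene had 1 peak among the 31395 peak intervals in which RNA pulled down for N4-acetylcytidine (ac4C), a modified base, was counted. These 2 peaks, found by overlap with the GRCh38 spans of the genes, are all the members. A search extended by 1000 bp on either side of the spans added none. The cells were 2 human osteosarcoma lines, HOS and its derivative 143B. In each line a control, labelled NC, was set against a NAT10 knockout, labelled sgNAT10, and no drug treatment, time course or further allele is named in the labels. Poly(A) RNA was fragmented and immunoprecipitated (acRIP), and each combination of line and genotype had 1 acRIP library, so no group had replicates. Whether a knockout line was a single clone or a pool was not given in the sources used here.

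The m6A mark is written on mRNA by a nuclear complex built around METTL3 and METTL14 and can be removed by ALKBH5 or FTO. Proteins with a YTH domain bind the marked base directly. YTHDC1 is the nuclear reader, with reported roles in splicing and in export of marked mRNA, while YTHDF1 is a cytoplasmic reader reported to promote translation and YTHDF2 one that promotes decay. NAT10 is the acetyltransferase that writes ac4C. The acRIP counts over a reader gene measure how much of that gene's RNA the ac4C antibody recovered, and not m6A or the protein.

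Counts over all peaks totalled 20107718 to 24785306 per library, and these totals are not the sequencing depth. The 143B library labelled sgNAT10 stood apart, with Spearman correlations across peaks of 0.583 to 0.718 with the other libraries against 0.803 to 0.865 among those. NAT10 itself, the targeted gene, had 65 counts in 143B NC and 130 in the 143B library labelled sgNAT10, against 180 in HOS NC and 63 in the HOS library labelled sgNAT10. The NAT10 shift was 0.50 (0.06 to 0.95) in 143B, higher in the library labelled sgNAT10, and -1.85 (-2.30 to -1.44) in HOS. These counts measure RNA recovered by the antibody and not NAT10 protein, so they do not show whether the knockout worked. The NAT10 peak lay 101 bp from the finish of the gene. For peaks within 500 bp of a finish, described below, the median shift was 0.81 in 143B and -0.69 in HOS. Here and below a shift is the difference in log2 CPM (counts scaled to a common library size) between sgNAT10 and NC of one line, and the values in parentheses are 95% intervals that cover counting error only. Of 8 mesenchymal and osteosarcoma markers 3 had an assigned peak in the tables, VIM with 6923 to 21284 counts, SPARC with 431 to 1231 and RUNX2 with 68 to 293. Their HOS shifts were 0.01, -1.86 and 0.78, and those in 143B -0.98, 0.05 and -1.81. The remaining 5, COL1A1, COL1A2, FN1, TWIST1 and THY1, had none. Of the epithelial markers, KRT8 had 283 to 460 counts in 3 libraries and 675 in HOS NC, KRT18 had 964 to 1511 in 3 libraries and 2121 in the 143B library labelled sgNAT10, and CDH1 had 812 in the HOS library labelled sgNAT10 against 30, 7 and 5 elsewhere. EPCAM had no assigned peak, and the blood cell marker PTPRC had at most 22 counts. The part of these differences in the results for the readers was not tested.

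The peaks of the readers lay at different places along their genes. The YTHDF1 peak (Gene ID 54915, chromosome 20, 63195456 to 63195596, 140 bp wide) lay 27 bp from the finish of the gene span, which is on the minus strand and covers 63195429 to 63216131. It therefore marks the 3′ end of the gene. The YTHDC1 peak (Gene ID 91746, chromosome 4, 68336996 to 68337106, 110 bp wide) lay inside the gene, which is on the minus strand and covers 68310387 to 68350090. It was 12984 bp from the start and 26609 bp from the finish. Exons were not part of the annotation used, so neither peak is assigned to an exon, an intron or an untranslated region. No other protein-coding gene overlapped either peak, read-through genes aside. Whether genes of other kinds did was not recorded. The YTHDF1 and YTHDF2 pseudogenes YTHDF1P1 and YTHDF2P1 had no peak of their own.

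**Figure D1:**
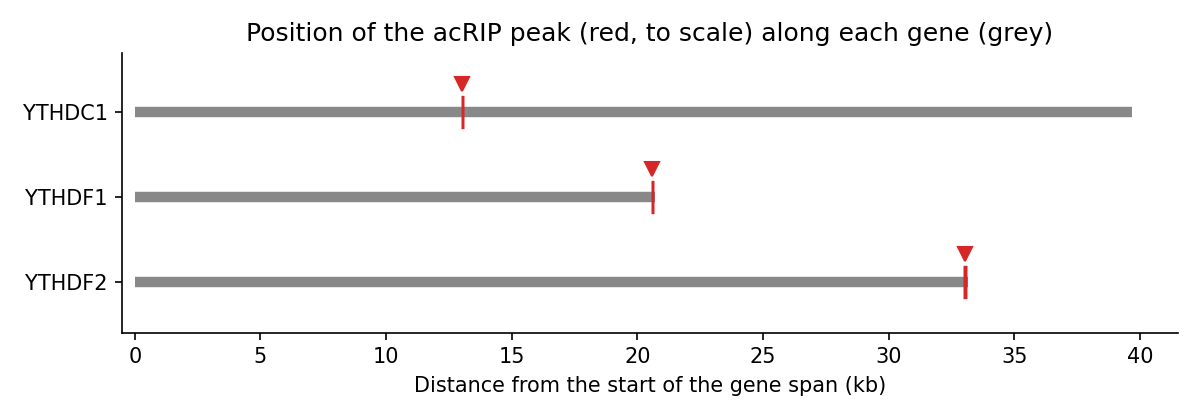
Position of the acRIP peak along the YTHDC1, YTHDF1 and YTHDF2 genes. The x axis is the distance from the start of the gene span in kb, grey bars are the spans, and red ticks under the triangles are the peaks drawn to scale; YTHDF1 and YTHDF2 carry theirs at the finish of the gene and YTHDC1 inside it.

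YTHDF1 gave opposite differences between genotypes in the 2 lines. Its peak had 97 counts in 143B NC and 295 in the 143B library labelled sgNAT10. The HOS libraries held 194 (NC) and 80 (labelled sgNAT10). Thus the 143B library labelled sgNAT10 and HOS NC were high, and 143B NC and the HOS library labelled sgNAT10 were low. Scaled with TMM factors, 143B NC had a level of 4.86 CPM (3.94 to 5.93) and 143B sgNAT10 one of 10.5 (9.30 to 11.7). HOS NC had 10.7 CPM (9.26 to 12.3) and HOS sgNAT10 had 3.46 (2.75 to 4.31). The shift was 1.10 (0.77 to 1.45) in 143B, a CPM 2.15-fold higher, and -1.62 (-2.02 to -1.25) in HOS, a CPM 3.09-fold lower. The shift in 143B exceeded that in HOS by 2.72 (2.24 to 3.24) on the log2 scale. With 1 library per line and genotype, this difference has no replicate check and was not tested.

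In order of CPM, HOS NC and the 143B library labelled sgNAT10 came first for YTHDF1 and did not differ beyond counting error, with a log2 difference of 0.03 (-0.24 to 0.30). The next step, from the 143B library labelled sgNAT10 to 143B NC, is the 143B shift. At the bottom, 143B NC exceeded the HOS library labelled sgNAT10 by 0.49 (0.05 to 0.93). Between the controls, HOS NC exceeded 143B NC by 1.14 (0.78 to 1.51). With library totals alone as the scale, the first 2 places changed, 143B sgNAT10 leading at 13.2 CPM before HOS NC at 7.83, and the lowest stayed HOS sgNAT10 at 3.79.

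YTHDC1 was lower in the 143B library labelled sgNAT10 than in the other 3. Its peak had 81 counts in 143B NC and 43 in the 143B library labelled sgNAT10. The HOS libraries held 79 (NC) and 110 (labelled sgNAT10). As a level, 143B NC had 4.06 CPM (3.22 to 5.04) and 143B sgNAT10 had 1.53 (1.10 to 2.05). HOS NC had 4.36 CPM (3.45 to 5.44) and HOS sgNAT10 had 4.76 (3.91 to 5.74). The 143B shift was -1.39 (-1.98 to -0.86), a CPM 2.66-fold lower. In HOS the shift with the TMM scaling was 0.13 (-0.30 to 0.56), with an interval that includes 0. Its size and sign in HOS depended on the scaling. It was -0.03 with DESeq2-type size factors and -0.15 when the rRNA block of chromosome 21 was left out of totals and factors. With library totals alone it was 0.70, above the upper end of the TMM interval, and no interval was computed on that scale. The 143B shift lay below that in HOS, with a log2 difference of -1.52 (-2.22 to -0.86) that was not tested.

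In order of CPM, the HOS library labelled sgNAT10, HOS NC and 143B NC followed each other for YTHDC1, with no step between neighbours beyond counting error. HOS NC over 143B NC gave 0.10 (-0.36 to 0.57), against 1.14 for YTHDF1. With library totals alone, HOS sgNAT10 came first at 5.21 CPM, 143B NC next at 4.03 and HOS NC at 3.19. The 143B library labelled sgNAT10 was lowest on this scale too, at 1.92 CPM.

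**Figure D2:**
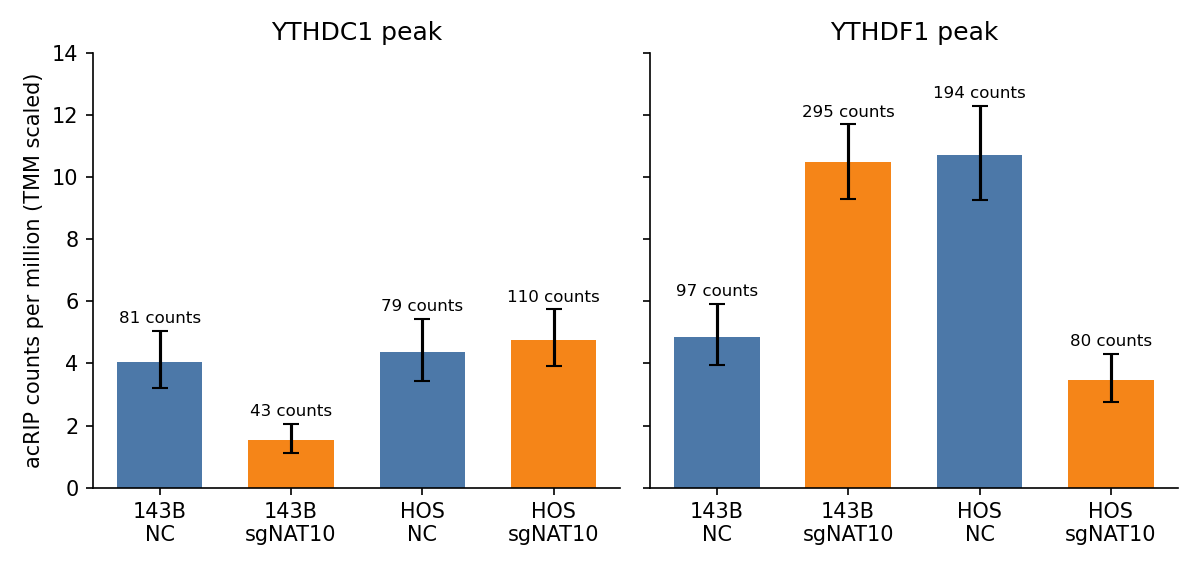
acRIP level of the YTHDC1 and YTHDF1 peaks in the 4 libraries, in TMM-scaled CPM. Bars are single libraries (blue NC, orange sgNAT10), lines are 95% intervals for counting error, and raw counts stand above the bars; YTHDF1 is high in 143B sgNAT10 and HOS NC, and YTHDC1 is low in 143B sgNAT10.

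The ratio of the readers within a library is free of scaling. With the TMM scaling both genes moved in 143B, while the YTHDC1 shift in HOS was only 0.13 (-0.30 to 0.56). For YTHDF1 counts per YTHDC1 count, 143B NC gave 1.20 (0.882 to 1.63) and the 143B library labelled sgNAT10 gave 6.86 (4.97 to 9.68). HOS NC had a ratio of 2.46 (1.88 to 3.23), and the HOS library labelled sgNAT10 one of 0.727 (0.538 to 0.979). In that library alone did YTHDC1 have more counts than YTHDF1. Per kb of peak width, YTHDC1 had 36.9 CPM and YTHDF1 34.7 in 143B NC, and 39.7 and 76.5 in HOS NC. In the libraries labelled sgNAT10 the CPM per kb was 13.9 for YTHDC1 and 74.7 for YTHDF1 in 143B, and 43.3 and 24.7 in HOS.

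Neither peak passed the test across lines. The edgeR quasi-likelihood test, with cell line as a block, gave -0.63 for YTHDC1 as a log2 fold change (SE 0.86, adjusted p = 0.981) and -0.26 for YTHDF1 (SE 1.02, adjusted p = 0.984). For each gene, 1 of 2 lines showed that sign. Of 24467 peaks tested, edgeR placed 0 (0.0%) below an adjusted p of 0.05 as higher and 0 (0.0%) as lower. Before adjustment, 944 peaks had a p under 0.05. DESeq2 and limma-trend also called 0, with 474 and 1089 peaks under that value before adjustment. The fit had 1 residual degree of freedom. The sign of the YTHDF1 fold change turned with library totals alone, to 0.20.

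Differences of 2-fold were common among all peaks with the TMM scaling, and the shares below were not counted with other scalings. In 143B, 20.1% of the peaks tested exceeded NC at least 2-fold in the sgNAT10 library, as YTHDF1 did, and 21.4% were lower to that extent, as YTHDC1 was. In HOS, 8.74% were lower at least 2-fold, as YTHDF1 was, and 24.4% higher. Both of the YTHDF1 differences together, 2-fold higher in 143B and 2-fold lower in HOS, were found in 424 of the 24467 peaks, or 1.73%. The YTHDC1 pattern of lower in 143B and higher in HOS, at any size, was found in 29.2%.

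With the TMM scaling, the YTHDF1 pattern in sign was that of most peaks at the 3′ end of a gene. Strand was known for 12402 of the 15350 peaks in protein-coding genes, and 886 of those besides YTHDF1 lay within 500 bp of the finish and had a mean count of 50 or more. Their median shift was 0.81 in 143B and -0.69 in HOS, and in 77.0% the shift was above 0 in 143B and below 0 in HOS. Among the 457 with a mean count within 2-fold of that of YTHDF1, the medians were 0.83 and -0.74, and 80.7% had these signs. Against these 457 peaks, YTHDF1 lay 0.27 above the median in 143B, with 69.8% of them below it. In HOS it lay at -0.88 relative to the median, with 5.47% below it. Both steps of 2-fold or more were found in 11.8% of the 457. These shares describe the libraries and are not a test. Library totals alone would add about 0.34 to each 143B shift and 0.58 to each HOS shift, so fewer peaks would lie below 0 in HOS. The shares of signs and of 2-fold steps were not counted on that scale.

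YTHDC1 lay within the bulk of internal peaks. Among 3119 peaks away from both ends of protein-coding genes and within 2-fold of its mean count, the median shift was -0.73 in 143B and 0.08 in HOS. With the TMM scaling, the shift of 39.7% of these was below 0 in 143B and above 0 in HOS. YTHDC1 lay at -0.66 relative to the median in 143B, with 28.3% of the peaks below it, and 0.04 above the median in HOS, with 51.7% below. Against the 1076 of them narrower than 150 bp, as YTHDC1 was, 20.1% lay below it in 143B and 71.7% in HOS. The median shift of these narrow peaks was -0.59 in 143B and -0.30 in HOS. In 25.5% of them the shift was below 0 in 143B and above 0 in HOS, against 25.6% of all 31395 peaks. Whether the contrast between the readers comes with the place of their peaks was not tested, since each gene had 1 peak.

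**Figure D3:**
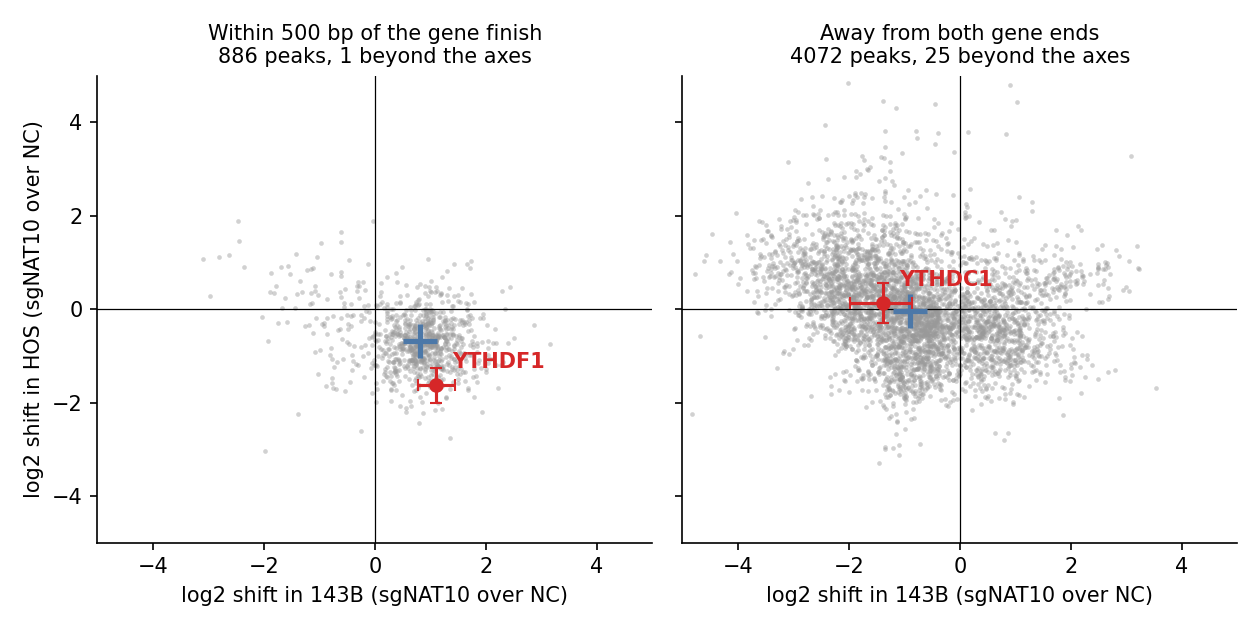
Log2 shift of protein-coding peaks whose mean count was at least 50, in 143B (x axis) and HOS (y axis), for 886 peaks within 500 bp of the gene finish (left, 1 beyond the axes) and 4072 away from both ends (right, 25 beyond the axes). Grey points are peaks, the blue cross is their median, and the red points are YTHDF1 and YTHDC1 with 95% counting intervals; YTHDF1 sits below and to the right of the median of 3′ end peaks, and YTHDC1 left of that of internal peaks.

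The nearest peaks on the chromosome differed in measured sign from YTHDF1. The closest, 17.2 kb away on the side of lower coordinates and outside annotated genes, had 56 counts (NC) and 32 (sgNAT10) in 143B, and 24 and 41 in HOS. The next on the other side, 39.9 kb away, had 11 and 5 counts in 143B and 11 and 32 in HOS. The measured signs of both were opposite to those of YTHDF1 in each line. Their shifts were -1.27 and -1.42 in 143B, and 0.41 and 1.13 in HOS. No counting intervals were computed for these neighbours, whose counts were as low as 5. The peaks flanking YTHDC1 were 104 and 263 kb away, the farther one in TMPRSS11F with 186 and 135 counts in 143B and 114 and 110 in HOS. The nearer one, outside annotated genes, had 4 and 18 counts in 143B and 7 and 12 in HOS, so its 143B shift of 1.48 was opposite in sign to that of YTHDC1.

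The genes with the most similar pattern were sought among 4104 protein-coding gene sums with a mean count of 50 or more, by Euclidean distance of log2 CPM centred on the gene's mean over the 4 libraries. A gene sum is the sum of a gene's peaks. For YTHDF1 the nearest were COA7 (distance 0.07), RACGAP1 (0.08), TSPAN3 (0.11), DCTPP1 (0.14) and MRPS12 (0.16). COA7, needed for assembly of cytochrome c oxidase, had 45 counts (NC) and 129 (sgNAT10) in 143B, and 90 and 36 in HOS. RACGAP1 acts in cytokinesis, and MRPS12 encodes a protein of the mitochondrial ribosome. The shifts of the 5 lay between 0.97 and 1.09 in 143B and between -1.65 and -1.41 in HOS. For YTHDC1 the nearest were PAM16 of mitochondrial protein import (0.14), the vesicle coat gene SEC24A (0.15), the kinase gene GSK3B (0.16), the lysosomal sulfatase gene IDS (0.16) and the ubiquitin ligase gene RNF168 (0.18). GSK3B had 899 and 501 counts in 143B and 992 and 1378 in HOS. The genes were picked for closeness over the same 4 libraries, so their similar shifts follow from that choice and are no separate result. All 10 distances rest on single libraries, and counting error was not part of them.

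Among the YTH readers, YTHDF2 also had its peak at the 3′ end, and YTHDF3 and YTHDC2 had no peak. The YTHDF2 peak (chromosome 1, 28769589 to 28769755) lay 20 bp from the finish of the gene. It had 23 counts in 143B NC and 106 in the library labelled sgNAT10, and 34 and 33 in HOS. Its shift was 1.67 (1.05 to 2.42) in 143B, as for YTHDF1 above 0, and -0.38 (-1.13 to 0.34) in HOS, where the sign turned with library totals alone (0.18). Of the m6A pathway genes whose strand was known, 2 more had a peak within 500 bp of the finish. The peaks of VIRMA, IGF2BP1, ELAVL1, EIF3A and CNOT1 could not be placed along the gene. RBMX, which encodes a nuclear RNA-binding protein, had a shift of 1.68 in 143B and -0.44 in HOS, where its sign too turned with library totals alone. The 3′ end peak of HNRNPA2B1 had 0.20 and -0.72. NAT10 had its only peak 101 bp from the finish.

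The m6A pathway as a whole was given by 47 genes on 7 lists, YTHDC1 and YTHDF1 included. Of these, 25 had an assigned peak and 24 were tested. Of the 24, 0 passed edgeR's adjusted p of 0.05 over 8157 gene sums. Among all those gene sums 0.0% were called higher and 0.0% lower, and 314 had a p under 0.05 before adjustment. In 143B, 5 of the 24 were at least 2-fold higher and 9 lower, against 21.3% and 17.5% of all gene sums. In HOS, 0 were higher and 8 lower, against 17.1% and 12.7%. These 2-fold counts and shares hold with the TMM scaling and were not counted with other scalings. Over the scalings the HOS shift of CBLL1 ran from 0.27 to 1.12, and that of ALKBH5 from -1.50 to -0.65. The median shift of the 24 was -0.02 in 143B and -0.60 in HOS, against 0.19 and 0.05 over all gene sums. With library totals alone these medians were 0.32 and -0.02 for the list and 0.53 and 0.61 for all. The 143B median of the list was above 0 with upper quartile factors (0.19) and without the rRNA block (0.06).

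Of the 12 writer genes, 3 had an assigned peak, and METTL3, METTL14 and WTAP of the core complex had none. CBLL1, which encodes the ubiquitin ligase HAKAI of that complex, had 4 peaks, all away from the ends of the gene. Their sum was 883 counts in 143B NC and 253 in the library labelled sgNAT10, and 862 and 1602 in HOS. The shifts of CBLL1 were -2.30 (-2.51 to -2.10) and 0.54 (0.42 to 0.66), with the measured signs of YTHDC1. PCIF1, the cap adenosine methyltransferase, had -0.09 (-0.62 to 0.43) and 0.20 (-0.19 to 0.59). VIRMA, a scaffold of the writer complex, had 4 counts in each 143B library, 3 in HOS NC and 155 in the HOS library labelled sgNAT10, and was too low in 3 libraries to be tested. Of the 2 eraser genes, FTO had no assigned peak. The demethylase gene ALKBH5 was lower in both lines, with 175 and 66 counts in 143B and 307 and 167 in HOS, or shifts of -1.88 (-2.34 to -1.49) and -1.22 (-1.51 to -0.95).

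With the TMM scaling, 12 of the 24 were above 0 in 143B and 5 in HOS, against 56.8% and 51.9% of all gene sums. These counts depended on the scaling, at 14 and 12 with library totals alone and 12 and 1 without the rRNA block. The remaining readers and the partners of the YTH proteins were mixed in 143B. IGF2BP2, reported to stabilise m6A-marked mRNA, had shifts of 0.10 (-0.24 to 0.45) in 143B and 0.13 (-0.19 to 0.45) in HOS, and IGF2BP1 had 0.54 and -0.78. Of 8 other reported readers, 3 were above 0 in 143B and 1 in HOS, and 4 in each line with library totals alone. HNRNPA2B1 had 0.06 and -0.67 over its 3 peaks, HNRNPC -0.22 and -1.02, and the translation initiation factor gene EIF3A 0.30 and 0.08. Of 8 nuclear partners of YTHDC1, 5 had an assigned peak, and 4 of these were above 0 in 143B and 0 in HOS. SRSF3, a splicing factor that binds YTHDC1, had 331 and 718 counts in 143B and 731 and 285 in HOS, shifts of 0.62 (0.43 to 0.81) and -1.71 (-1.91 to -1.51). Its signs were therefore those of YTHDF1 and not of YTHDC1. KHDRBS1, the RNA-binding protein SAM68, had 0.67 and -0.91, and CPSF6, of the cleavage factor complex, -2.63 and -0.36. Of 9 decay partners of the YTHDF proteins, 3 had an assigned peak. CNOT1, the scaffold of the CCR4-NOT deadenylase, had -2.11 and -0.74, and the deadenylase gene CNOT6 0.08 and -0.45. UPF1, of nonsense-mediated decay, had 185 and 130 counts in 143B and 248 and 219 in HOS, a HOS shift of -0.53. With library totals alone the HOS shifts of CPSF6, UPF1 and CNOT6 were above 0, as were those of FMR1, RBMX and PRRC2A among the other readers.

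**Figure D4:**
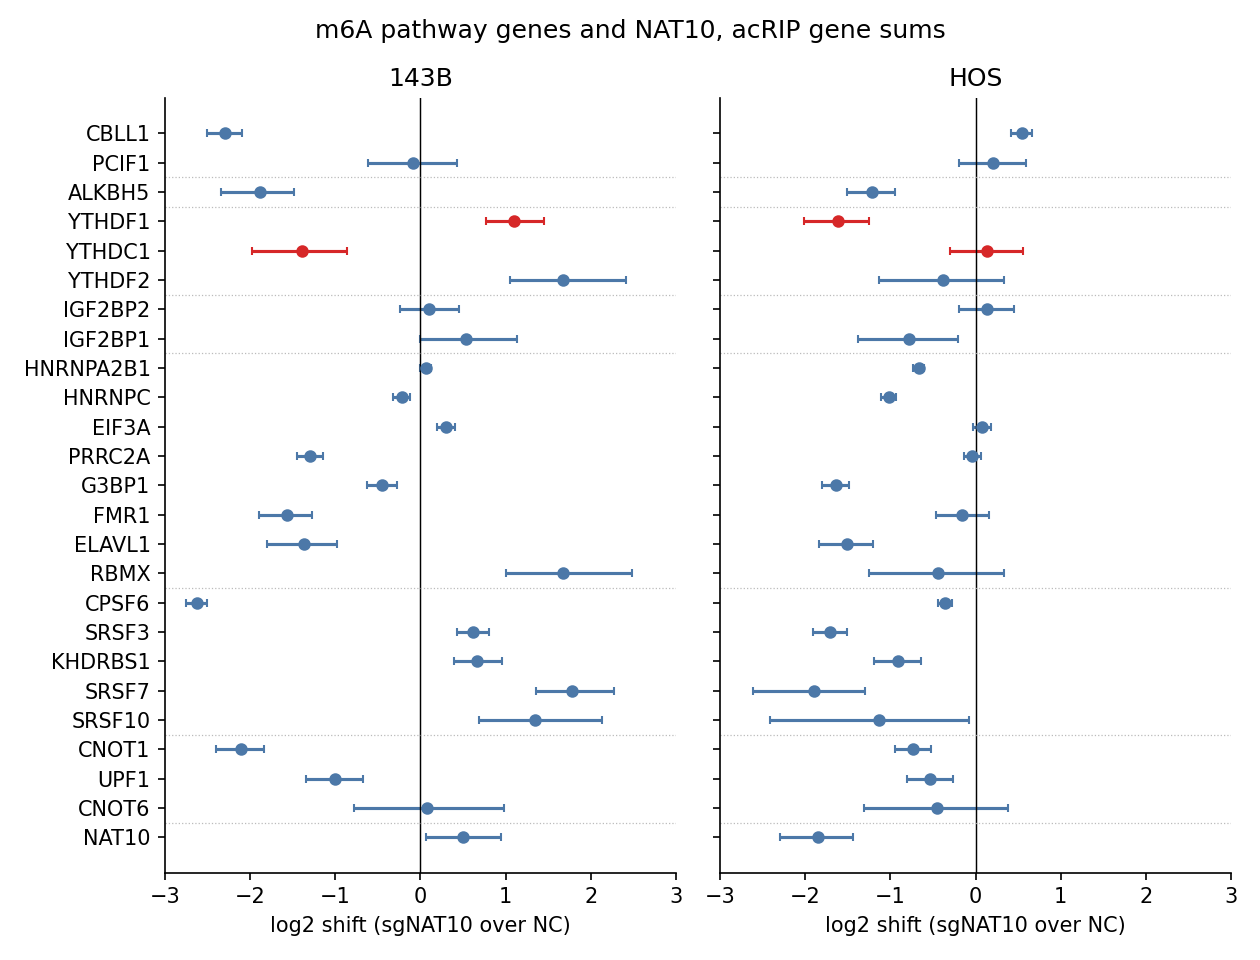
Log2 shift (sgNAT10 over NC) of the 24 tested m6A pathway genes and NAT10 in 143B (left) and HOS (right). Points are gene sums, lines are 95% counting intervals, dotted lines separate the lists from writers at the top to NAT10 at the bottom, and YTHDF1 and YTHDC1 are red; with this TMM scaling 5 of the 24 lie above 0 in HOS and 12 in 143B, and with library totals alone 12 and 14.

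The shifts of the readers join the amount of RNA with its recovery by the antibody. Input libraries were not used here and the labels name no spike-in, so less RNA of a gene, fewer cells holding it and less ac4C on it cannot be told apart.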

How the data were processed

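The deposited values are raw read counts over 1 shared set of peak intervals, in a table for each line. Per the submitters' processing notes, the build was GRCh38 and the tools were FastQC, STAR, SAMtools and deepTools. How peaks were called and reads counted, strand and multiply mapped reads included, and whether starts count from 0 is not given in the sources used here. Column names give line and genotype only, and the tables were taken as acRIP because they are named as RIP counts. Of 8 samples in the labels, the 4 inputs were not used.

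Peaks were joined to the gene spans of RefSeq's GRCh38.p14 table, with strand from its promoter table. A peak went to the only protein-coding gene it overlapped, or else to the only gene, giving 9097 gene sums from 19102 peaks. Another 710 peaks overlapped several genes and were not assigned. Peaks were tested with edgeR 4.0.16 (quasi-likelihood, TMM, filterByExpr with a minimum count of 10 and minimum total of 15, cell line as a block, Benjamini-Hochberg adjustment), with DESeq2 1.42.0 and limma 3.58.1 as alternatives. Since the lines are the only repeats, p-values rest on how far they disagree in the genotype difference, with information on spread shared across peaks. They do not measure the spread between repeat libraries of one line. Shifts used a prior count of 1, and their intervals exact conditional binomial or Poisson bounds (for the difference between lines, a normal approximation). No molecular identifiers are named, so reads may not be independent molecules.

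The members and gene lists were chosen with earlier results of these data known. Named are the YTHDC1 and YTHDF1 peaks, every measured writer, eraser and YTH reader, up to 3 members of other lists by mean count, and the 5 most similar genes of each reader. RBMX, FMR1, PRRC2A, SRSF7, SRSF10 and the 3′ end peak of HNRNPA2B1 were named after their values were seen. No sequence is printed, since the sequences of the peaks were not part of the reference used here.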

Additional observations from a re-analysis of the deposited data

Results flagged for a closer look

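Over every gene of the m6A pathway lists, NAT10 and the marker lists, 10 genes had a shift above 0 in one line and below 0 in the other, with both counting intervals clear of 0. Each line has 1 library per genotype, so no difference between lines was tested. Opposite signs were common with the TMM scaling. Of all 31395 peaks, 19.3% were above 0 in 143B and below 0 in HOS, and 25.6% the reverse, at any size. How many of all gene sums met the interval rule was not counted, so the 10 are not a result about the pathway. YTHDF1 was higher in the 143B library labelled sgNAT10 and lower in the HOS one, and its shifts differed by 2.72 (143B minus HOS, log2). The same signs were found for 4 nuclear partners of YTHDC1, SRSF7 with a difference of 3.68, SRSF10 with 2.49, SRSF3 with 2.33 and KHDRBS1 with 1.58. They were also found for NAT10, which differed by 2.35, and for the marker KRT18, which differed by 1.30. CBLL1 had the opposite signs, with a difference of -2.84, as did the markers RUNX2 with -2.59 and CDH1 with -9.18, the latter from 5 counts in HOS NC. YTHDC1 is not among them because its HOS interval includes 0 with the TMM scaling. The intervals were computed with that scaling only, so the 10 genes and this exclusion hold for it alone. With library totals alone the YTHDC1 shift in HOS was 0.70, and the rule was not applied on that scale.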

How the results depend on the processing

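The adjusted p of YTHDC1 and YTHDF1 in the fits across lines was at least 0.899 under every alternative run, on peaks and on gene sums. With library totals alone the YTHDF1 fold change turned to 0.20 for the peak (adjusted p = 0.985, edgeR) and 0.21 for the gene sum (adjusted p = 0.993, edgeR). At a mean count of 100 or more YTHDC1 was not tested, 6 peaks were called higher and 3 lower, and 1 gene sum was called higher. Without a filter beyond a count above 0, 50 peaks were called higher and 62 lower, and neither reader was among them. Within lines, the YTHDF1 shift kept its sign under all alternatives, from 0.27 to 1.44 in 143B, and in HOS from -1.89 to -0.88. The low ends in size, 0.27 and -0.88, are relative to the median of peaks of like position and count, an alternative chosen after seeing the data, and library totals alone gave -1.04 in HOS. The YTHDC1 shift in 143B lay between -1.47 and -0.66, the latter relative to that median. In HOS it was -0.03 with DESeq2-type size factors, -0.15 without the rRNA block and 0.70 with library totals alone. Taking the highest peak or adding peaks within 1000 bp changed nothing, since each gene has 1 peak. Leaving out a line leaves the shift of the other, with no test. Without the cell line block, which pairs the genotypes within a line, the fold changes of the peaks were -0.42 (YTHDC1) and -0.16 (YTHDF1), and 0 peaks were called. The counts of 43 to 295 per library limit the precision, as the intervals show.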
